A study of Danio rerio with 6 samples.

Results

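The transcripts described here were abundant in whole zebrafish embryos at 96 hours post fertilization (hpf) and near 0 at 24 hpf. They were chosen by their FPKM, the number of fragments of a transcript scaled to its length and to the mapped fragments of the library: at least 10 FPKM in all 3 libraries of 96 hpf and less than 0.1 FPKM in all 3 libraries of 24 hpf. Of 58002 identifiers in each library, 72 met this rule, all of them Ensembl transcript IDs. The rule is made of the values themselves, so the distance between the stages, which is at least 100-fold from the limits alone, and the level of 10 FPKM or more describe the choice and were not tested.

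The embryos were the offspring (F1) of wild-type AB zebrafish that had been kept, from 3 months of age and for over 21 days, in normal water (control), in 0.078 µM (5 µg/L) copper or in 0.156 µM (10 µg/L) copper. All embryos grew in water without added copper, so the groups share their own rearing and differ in the water of the parents. Each library came from a pool of 50 to 60 embryos, collected with regard to phenotype according to the series design. Each parental group had 1 library per stage, 6 libraries in all. The series design mentions 3 repetitions for each group, and the labels do not say whether these were pooled for sequencing. With 1 library per group, no difference below has a replicate error, no test was run, and every count describes these libraries. Exposure of the parents and selection of the embryos by phenotype cannot be told apart.

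Between these stages the zebrafish passes from an embryo with a beating heart, a segmented trunk and a regionalized brain to a hatched, swimming larva. In that period the liver, the exocrine pancreas and the gut differentiate, photoreceptors and lens fibres mature, and cartilage and skin take on their larval form. Differentiated cells of this kind are known for a small number of very abundant messages, such as those for digestive enzymes, plasma proteins and crystallins, which are scarce or absent before the organ forms. Which of the 72 transcripts belong to such genes was not analysed here, because the files give transcript IDs without their genes, and 0 of the 72 had an entry in the gene tables used. They are therefore named by ID, and the labelled stage was not checked against marker genes.

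At 96 hpf the members lay in the upper part of each library. Their median was 26.7 FPKM in the control library, 22.7 FPKM in the 0.078 µM library and 20.3 FPKM in the 0.156 µM library. These medians stood at percentiles 96.0, 95.2 and 94.5 of all identifiers of the same libraries. The lowest member had 10.6, 10.1 and 10.1 FPKM, close to the limit in each case, and the highest had 985, 867 and 870 FPKM. By the mean over the 3 libraries of 96 hpf, 32 members lay from 10 to 20 FPKM, 22 from 20 to 50 FPKM, 7 from 50 to 100 FPKM and 11 at 100 FPKM or more. The distribution was thus wide, with many members near the limit and a few far above it.

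**Figure D1:**
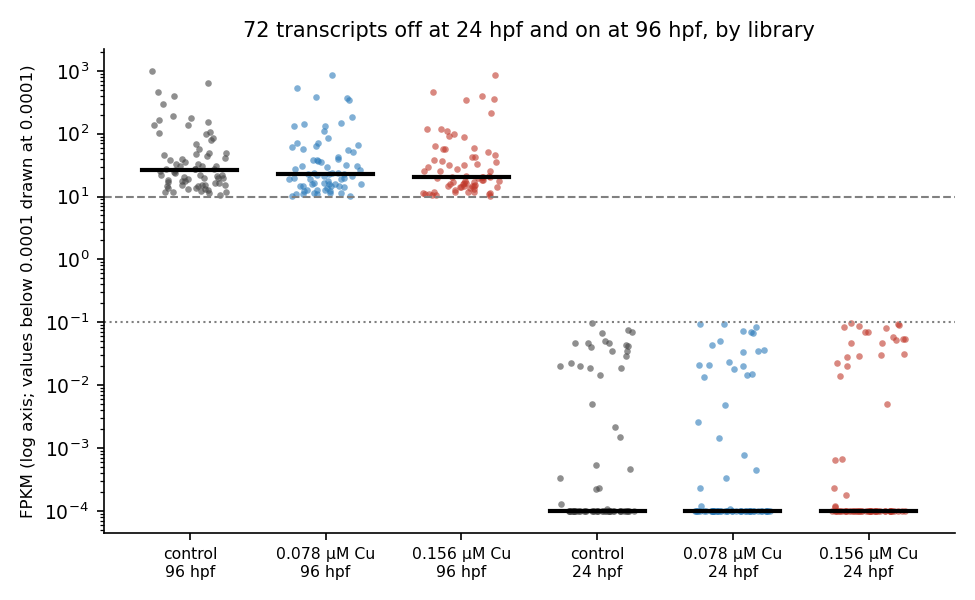
FPKM (log axis) of each of the 72 members in the 3 libraries of 96 hpf and the 3 libraries of 24 hpf, 1 point per transcript. Bars show the median of the 72 members in each library. Values and medians below 0.0001 FPKM are drawn at 0.0001, the dashed line is the limit of 10 FPKM and the dotted line that of 0.1 FPKM. The members spread from 10.1 to 985 FPKM at 96 hpf, and at 24 hpf they form an upper cluster of small values and a lower one at or near 0.

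The members held 1.18% of the summed FPKM of the control library at 96 hpf, 1.02% of that of the 0.078 µM library and 0.947% of that of the 0.156 µM library. At 24 hpf they held between 0.000151% and 0.000210%. As sums, 5602, 4989 and 4652 FPKM at 96 hpf stood against 0.851, 0.840 and 1.16 FPKM at 24 hpf in the control, 0.078 µM and 0.156 µM libraries. The share was concentrated in few transcripts. The 5 most abundant members made up 49.5%, 50.3% and 52.3% of the members' sum at 96 hpf, and the same 5 transcripts led in all 3 libraries. The 36 most abundant in each library made up 89.0%, 88.9% and 88.8%. The members were 1.19% of the 6042 transcripts that had at least 10 FPKM in all 3 libraries of 96 hpf.

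The most abundant member was ENSDART00000067160, with 985 FPKM in control offspring, 867 FPKM in those of 0.078 µM parents and 870 FPKM in those of 0.156 µM parents at 96 hpf. At 24 hpf it had 0.0418 and 0.0207 FPKM in the control and 0.078 µM libraries and was listed at 0 in the 0.156 µM library. ENSDART00000037346 had 636, 538 and 466 FPKM at 96 hpf in the order control, 0.078 µM and 0.156 µM. Both were highest in the control library. ENSDART00000002046, with 460, 373 and 356 FPKM, was also highest in control. ENSDART00000065940 had nearly the same level in all libraries of 96 hpf, at 393, 381 and 400 FPKM. ENSDART00000145610 was lowest in control, with 301, 350 and 342 FPKM. The 5 thus differed in which parental group was highest.

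The next 5 by mean level were less even. ENSDART00000049045 had 177, 181 and 210 FPKM at 96 hpf in the control, 0.078 µM and 0.156 µM libraries, the highest value being that of 0.156 µM. ENSDART00000058067 had 189, 147 and 117 FPKM, and ENSDART00000022139 had 163, 133 and 92.4 FPKM. Both were lower at each step of parental copper. ENSDART00000091021 had 138, 130 and 118 FPKM, and ENSDART00000053521 had 151, 140 and 88.7 FPKM, in the same order of groups. Of the 10 most abundant members, 7 were highest in control and 6 followed the order control, 0.078 µM, 0.156 µM downward. The same counts over all members and the shares over other transcripts are given below. All 10 had at least 0.01 FPKM in 1 or more libraries of 24 hpf, although 5 were also listed at 0 in at least 1 of them.

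**Figure D2:**
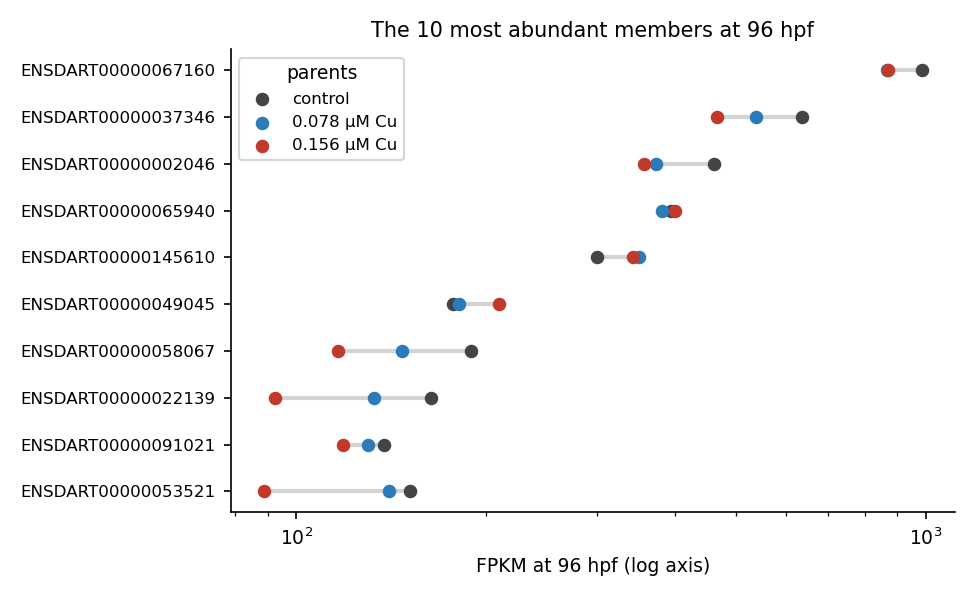
FPKM at 96 hpf (log axis) of the 10 members with the highest mean, 1 row per transcript and 1 point per parental group, with a bar from the lowest to the highest. ENSDART00000067160 stands at 867 to 985 FPKM, and the widest of the 10 bars is that of ENSDART00000022139, at 92.4 to 163 FPKM.

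At 24 hpf the members were of 2 kinds by level, set apart by marks chosen after the values had been seen. In 36 of them the value was below 0.001 FPKM in all 3 libraries, and 16 of these were listed at exactly 0 throughout. In 34 members at least 1 library of 24 hpf had 0.01 FPKM or more, and in 8 of these all 3 libraries did. The remaining 2 lay between. FPKM of a single transcript depends on how the estimation shares out fragments among the transcripts of a gene, so a value listed at 0 was not read as absence. The 34 members with 0.01 FPKM or more somewhere at 24 hpf included all 11 with a mean of at least 100 FPKM at 96 hpf. They held 79.1%, 79.7% and 79.5% of the members' sum in the control, 0.078 µM and 0.156 µM libraries. Their medians at 96 hpf were 36.7, 37.2 and 28.4 FPKM, beside 20.9, 19.4 and 17.5 FPKM for the 36 near 0. All 11 members of at least 100 FPKM at 96 hpf thus had 0.01 FPKM or more somewhere at 24 hpf. Such values are small, and in some members they stood in 1 library only, as for ENSDART00000037346 at 0, 0 and 0.0892 FPKM. With depth unknown, the fragments behind them were not counted, and these values were not read as early expression.

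The members were then compared between parental groups at 96 hpf, as differences of log2(FPKM + 1). This is the comparison that the series was made for, since the embryos differ in the copper exposure of their parents. With parents at 0.078 µM, 55 of 72 members were lower than control and 17 higher, with a median difference of -0.16 and quartiles of -0.28 and -0.01. Lower than control by any amount were 49.5% of the 27496 transcripts that reached 1 FPKM in any library of 96 hpf, and 38.9% of the 5970 other transcripts with at least 10 FPKM in all 3, whose median was 0.03. With parents at 0.156 µM, 52 members were lower and 20 higher than control, with a median of -0.26 and quartiles of -0.53 and 0.00. The share lower in that comparison was 47.5% of the 27496 and 40.2% of the 5970, and the median of the 5970 was 0.04. The medians of the members correspond to 0.893 and 0.836 times the control value on this scale. Both comparisons use the same control library and its error. In whole embryos, fewer cells of a type and less RNA per cell cannot be told apart.

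Between the copper groups, which leaves the control library out, 46 members were lower at 0.156 µM than at 0.078 µM and 26 higher, with a median difference of -0.11. Here 47.6% of the 27496 transcripts and 49.0% of the 5970 were lower, and the median of the 5970 was 0.00. The order control above 0.078 µM above 0.156 µM was found in 35 members, 48.6%, against 17.7% of the 27496 transcripts and 14.9% of the 5970. Control was the highest of the 3 groups in 44 members and the lowest in 9. Among the 5970 it was the highest in 25.0% and the lowest in 45.9%, and among the 27496 in 33.1% and 35.9%. The sums of FPKM over the libraries of 96 hpf went the other way, with 476499 in control, 486953 at 0.078 µM and 491171 at 0.156 µM. Rescaling each library to the same sum gave medians of -0.20, -0.31 and -0.12 for the 3 comparisons in the order above, and quantile normalization gave -0.20, -0.29 and -0.10.

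**Figure D3:**
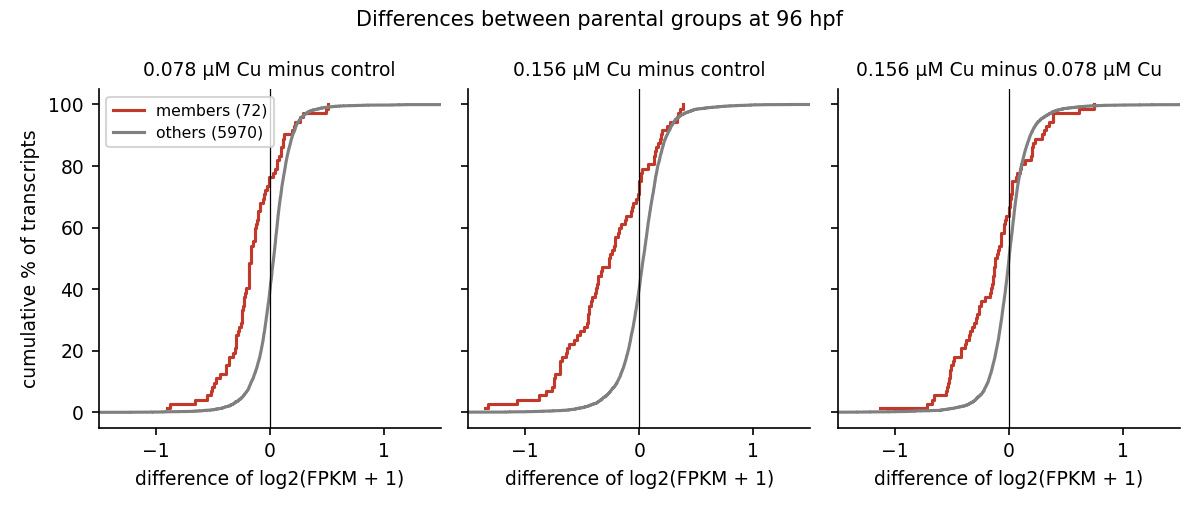
Cumulative share of transcripts by their difference of log2(FPKM + 1) between parental groups at 96 hpf, for the 72 members and the 5970 other transcripts of at least 10 FPKM, 1 panel per comparison. Where a curve crosses the vertical line at 0, its height is about the share of transcripts that were lower, which was 76.4%, 72.2% and 63.9% of the members from left to right.

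Few members differed by as much as 2-fold. With parents at 0.078 µM, 0 of 72 did, where 4.03% of the 27496 transcripts and 0.369% of the 5970 were at least 2-fold apart. With parents at 0.156 µM it was 3 of 72, beside backgrounds of 4.66% and 0.385%. All 3 were lower than control, where 2.41% of the 27496 and 0.235% of the 5970 were at least 2-fold lower. Between the doses it was 1 of 72, beside 4.20% and 0.486%. It was lower at 0.156 µM, as were 1.95% and 0.268% of the backgrounds. The first background also takes transcripts down to 1 FPKM, whereas the second carries the same lower limit as the members. The range over the 3 parental groups had a median of 0.384 log2 units in the members and 0.156 in the 5970. It reached 1 in 4 members, 5.56%, against 8.02% of the 27496 and 0.821% of the 5970.

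The widest of these 4 was ENSDART00000144341, whose levels were 40.1, 21.4 and 15.1 FPKM in the control, 0.078 µM and 0.156 µM libraries, a difference of -1.36 for the higher dose against control. ENSDART00000137272 had 106, 67.2 and 41.9 FPKM, and ENSDART00000130970 had 30.7, 23.8 and 14.1 FPKM, in the same order of groups. Their differences at 0.156 µM were -1.32 and -1.07. In all 3 the 0.078 µM library lay between the other two. ENSDART00000159373 was different in kind, at 27.0, 38.4 and 17.0 FPKM in that order, so that the copper libraries lay on opposite sides of control with a difference of -1.13 between the higher and the lower dose.

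At the other end, ENSDART00000128932 had 16.5, 16.4 and 16.5 FPKM in the control, 0.078 µM and 0.156 µM libraries, the smallest range of all members. ENSDART00000065940, given above, was the next. ENSDART00000101449 had 30.9, 32.0 and 32.5 FPKM, ENSDART00000154449 had 14.6, 15.8 and 14.8 FPKM, and ENSDART00000036050 had 46.5, 50.4 and 46.4 FPKM. Each of these 5 stayed within 0.12 log2 units over the parental groups at 96 hpf.

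The lower level in the copper libraries than in control was seen in the members of higher and of lower abundance. No background was computed for these parts. Over all levels, 49.5% of the 27496 transcripts and 38.9% of the 5970 were lower than control at 0.078 µM. At 0.156 µM it was 47.5% and 40.2%. In the 36 members of higher mean level, from 23.4 to 907 FPKM, the median difference from control was -0.18 at 0.078 µM and -0.37 at 0.156 µM, and 28 were lower than control in each of the 2 comparisons. In the 36 of lower mean level, from 11.1 to 22.9 FPKM, the medians were -0.13 and -0.19, and 27 and 24 were lower. Between the doses, 26 of the 36 of higher level were lower at 0.156 µM, with a median of -0.14. Of the 36 of lower level it was 20, with a median of -0.06, so the doses were little apart there. Over all levels 47.6% of the 27496 and 49.0% of the 5970 were lower. The order control above 0.078 µM above 0.156 µM was held by 21 members of higher and 14 of lower level. It was held by 17.7% of the 27496 and 14.9% of the 5970. The members with 0.01 FPKM or more somewhere at 24 hpf and those below 0.001 FPKM throughout were also alike in direction. In the first, 27 of 34 were lower than control at each dose, with medians of -0.18 and -0.35. In the second, 26 and 24 of 36 were lower, with medians of -0.14 and -0.21. Between the doses, 23 of the 34 and 22 of the 36 were lower at 0.156 µM, with medians of -0.13 and -0.07. Whether these pairs of medians differ was not tested.

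All 6042 transcripts of at least 10 FPKM at 96 hpf were set out by their highest value over the libraries of 24 hpf, in classes chosen after the members' differences had been seen. The median difference between 0.156 µM and control was -0.26 in the 72 members, -0.13 in the 114 transcripts from 0.1 to 0.5 FPKM and -0.03 in the 84 from 0.5 to 1 FPKM. It was 0.01, 0.02 and 0.04 in the 273, 940 and 4559 transcripts from 1 to 3, from 3 to 10 and from 10 FPKM. The order control above 0.078 µM above 0.156 µM was held by 48.6%, 44.7%, 26.2%, 18.7%, 17.4% and 13.2% of these classes. The median level at 96 hpf also varied along the classes, with 23.1, 23.1, 18.6, 16.4, 15.1 and 23.1 FPKM in the same order, and its part in these differences was not tested. Of the 114 transcripts from 0.1 to 0.5 FPKM, 69.3% were lower than control at 0.078 µM and 71.9% at 0.156 µM. Between the doses 64.0% of them were lower at 0.156 µM. The shares of the members were 76.4%, 72.2% and 63.9%, so a share of this size was not particular to the members. Transcripts just above the limit of 0.1 FPKM thus stood nearer to the members than those with higher values at 24 hpf did.

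**Figure D4:**
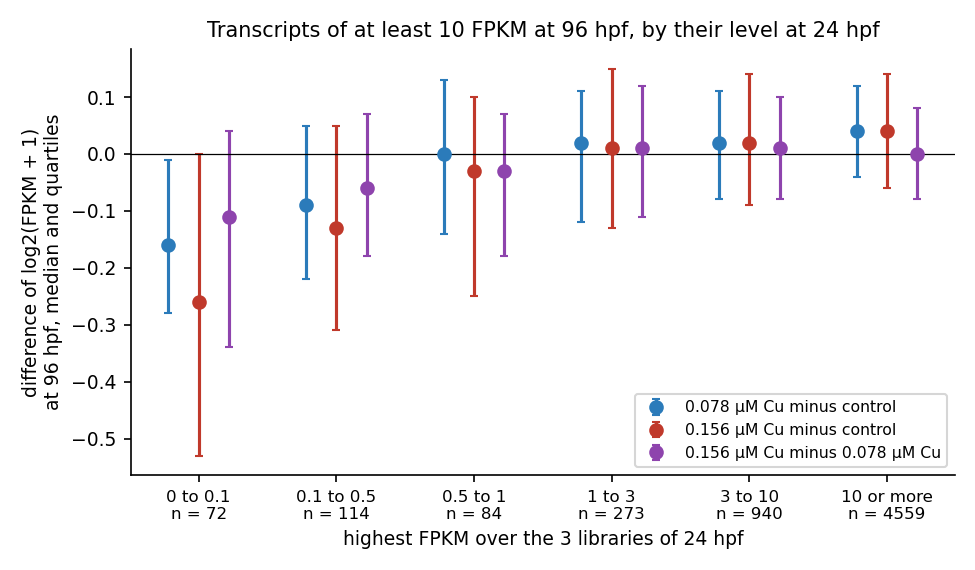
Median difference of log2(FPKM + 1) between parental groups at 96 hpf, with bars from the lower to the upper quartile over transcripts, in classes of the highest FPKM at 24 hpf. The members are the class from 0 to 0.1, with medians of -0.16, -0.26 and -0.11, and the class of 10 or more has medians of 0.04, 0.04 and 0.00.

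Since the rule used every library, the comparisons were repeated on transcripts chosen in the libraries of the third parental group alone, an alternative added after seeing the data. Of 165 transcripts at 10 FPKM or more at 96 hpf and below 0.1 FPKM at 24 hpf in the 0.156 µM libraries, 65.5% were lower at 0.078 µM than in control, with a median of -0.11. Among the 6481 other transcripts at 10 FPKM or more in the 0.156 µM library of 96 hpf, 38.9% were lower and the median was 0.04. Of 146 chosen in the 0.078 µM libraries, 67.1% were lower at 0.156 µM than in control, with a median of -0.16, against 40.6% and 0.04 in the 6463 others. Of 163 chosen in the control libraries, 62.0% were lower at 0.156 µM than at 0.078 µM, with a median of -0.10, against 49.4% and 0.00 in the 6433 others. All 72 members are by construction among the transcripts chosen in each way, so these results partly repeat those of the members. Leaving them out brings the compared libraries back into the choice, since every transcript left missed a limit in the groups compared. The values without the members are therefore not free of the rule. Without the members, 53 of 93 were lower at 0.078 µM than in control, 57.0%, with a median of -0.06. At 0.156 µM against control it was 46 of 74, 62.2%, with a median of -0.11, and between the doses 55 of 91, 60.4%, with a median of -0.09. These medians were nearer to 0 than those of the members in all 3 comparisons. The 2-fold differences of the wider choices, which are not held to 10 FPKM in the libraries compared, did not all go the same way. At 0.078 µM against control 10 of 165 were at least 2-fold apart, 4 lower and 6 higher. This was 6.06%, against 0.833% of the 6481 others. At 0.156 µM against control it was 6 of 146, all lower, which was 4.11% against 1.18% of the 6463 others. Between the doses it was 11 of 163, 7 lower and 4 higher at 0.156 µM. That was 6.75%, against 1.09% of the 6433 others.

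The rule was also applied to 2 parental groups at a time, and its limits were read in the libraries of the third. With control held out, 96 transcripts met the rule in both copper groups, and 72 of these, 75.0%, met it in control. With 0.078 µM held out it was 72 of 89, 80.9%, and with 0.156 µM held out 72 of 92, 78.3%. Over all identifiers the limits were met by 0.281% in control, 0.252% at 0.078 µM and 0.284% at 0.156 µM. Most identifiers were far below 10 FPKM at 96 hpf, so a higher share was to be foreseen. Among the 6042 transcripts of at least 10 FPKM in all 3 libraries of 96 hpf, members included, 1.87%, 2.07% and 2.18% were below 0.1 FPKM at 24 hpf in the same order. Most misses were at 24 hpf. Of the 24 transcripts that missed in control, 21 had 0.1 FPKM or more at 24 hpf, and of these 17 were below 1 FPKM. Of the 17 that missed at 0.078 µM, 15 did so at 24 hpf, 14 of them below 1 FPKM. Of the 20 that missed at 0.156 µM, 16 did so at 24 hpf, 13 of them below 1 FPKM. The median in the held-out library of 96 hpf was 25.9 FPKM for control, 23.4 FPKM for 0.078 µM and 20.5 FPKM for 0.156 µM.

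**Figure D5:**
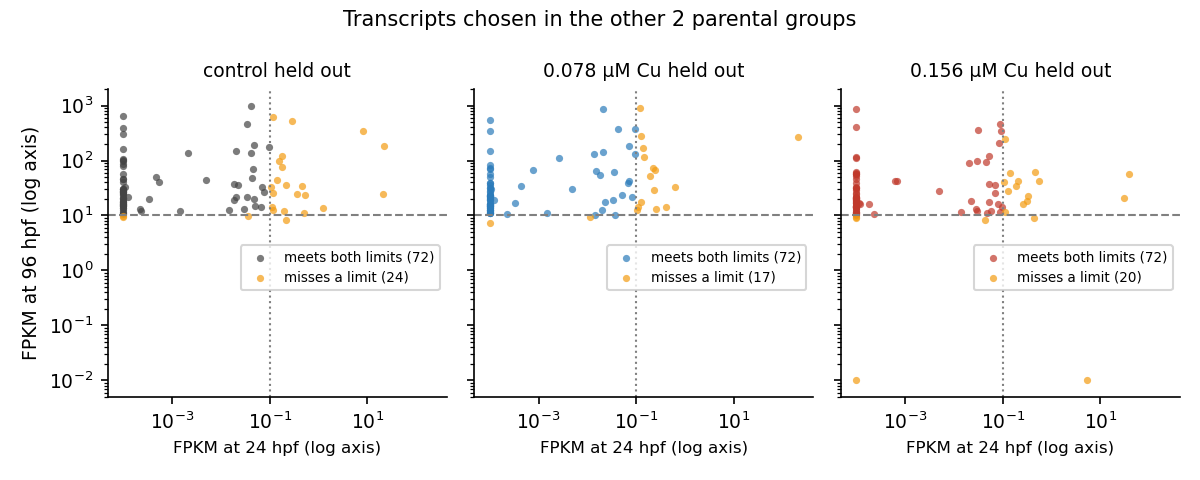
FPKM at 96 hpf against FPKM at 24 hpf (log axes) in the libraries of the parental group held out, for the transcripts that met the rule in the other 2 groups. Values below 0.0001 FPKM at 24 hpf and below 0.01 FPKM at 96 hpf are drawn there, and the lines mark the limits. In each panel 72 transcripts meet both limits, and 24, 17 and 20 miss at least 1, most of them between 0.1 and 1 FPKM at 24 hpf.

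A few missed by a wide margin. Each such value rests on 1 library, and how fragments were shared among the transcripts of a gene could not be checked. ENSDART00000168845 had 92.2, 264 and 102 FPKM at 96 hpf in the control, 0.078 µM and 0.156 µM libraries. At 24 hpf it stood at 206 FPKM in the 0.078 µM library, against 0.00914 FPKM in control and a listing at 0 for 0.156 µM. ENSDART00000117769 had 21.7 FPKM in the control library of 24 hpf and was listed at 0 in both copper libraries, and ENSDART00000165788 stood at 20.7 FPKM in control, against 0.0751 and 0.0266 FPKM for the copper groups. In both, only the control library of 24 hpf had 0.1 FPKM or more. ENSDART00000144075 had 8.01 FPKM in control at 24 hpf and at most 0.0120 FPKM in the copper libraries. At 0.156 µM, ENSDART00000172332 was listed at 0 at both stages, while at 96 hpf the control library held 137 FPKM and the 0.078 µM library 60.3 FPKM. ENSDART00000145457 had 6.87e-23 FPKM at 96 hpf in the 0.156 µM library, against 110 and 125 FPKM in control and 0.078 µM, but 5.42 FPKM at 24 hpf. ENSDART00000150163 had 38.8 FPKM at 24 hpf in the 0.156 µM library, and 0.00141 and 0.00179 FPKM in the control and 0.078 µM libraries. The widest misses of 0.078 µM after the one above were small, with 0.629 FPKM at 24 hpf for ENSDART00000129859 and 0.400 FPKM for ENSDART00000133171.

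Near the limits the members passed without a gap into transcripts that did not meet the rule. The lowest members at 96 hpf were ENSDART00000061256, with 12.4, 10.1 and 11.7 FPKM in control, 0.078 µM and 0.156 µM, ENSDART00000128196, with 13.5, 12.5 and 10.1 FPKM, and ENSDART00000146955, with 13.1, 10.3 and 13.1 FPKM. Just outside stood ENSDART00000078154 and ENSDART00000132089, with 9.98 and 9.85 FPKM in control, and ENSDART00000165746, with 9.45 FPKM at 0.156 µM. At 24 hpf the highest values inside were 0.0979 FPKM for ENSDART00000049045 in control, 0.0959 FPKM for ENSDART00000130970 at 0.156 µM and 0.0951 FPKM for ENSDART00000022139 at 0.078 µM. Just outside were ENSDART00000170543, with 0.103 FPKM at 0.078 µM, ENSDART00000156295, with 0.105 FPKM at 0.156 µM, and ENSDART00000147532, with 0.108 FPKM in control. The number of members therefore depends on where the limits stand.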

How the data were processed

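RNA of pooled zebrafish embryos was sequenced in 6 libraries. The values are FPKM per transcript as deposited by the authors, per the file headers. The submitters' processing notes name Cufflinks 2.1.1, TopHat2 and Trimmomatic, without settings. The sources used here state no genome build, annotation release or scaling between libraries. Total depth is unknown, so no count test, interval or limit for values at 0 was computed. From the steps of values between 0.005 and 0.3 FPKM, sought only at ratios near 1, the copper libraries were 1.01 to 1.08 times as deep as the control library of their stage.

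Groups were compared by subtracting log2(FPKM + 1), with a pseudocount of 1 that understates changes of low transcripts, using Python 3.11.15, pandas 2.3.3 and numpy 2.4.6. A 2-fold difference on this scale was counted. Backgrounds were the transcripts that reached 1 FPKM in any library of 96 hpf, and those other than the members with at least 10 FPKM in all 3. The rule and the counts were tested by planting transcripts of known level and exact fold in the real values. All planted transcripts met both limits, so noise and levels across the limits were not tried.

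Named transcripts were the 10 members of highest mean at 96 hpf, those at least 2-fold apart between parental groups, the 5 of smallest range, the 3 nearest each side of each limit, and the 3 widest misses per group held out. The members, lists and comparisons were chosen with earlier results of these data known. Of 12 lists of cell type genes, none was used, as 0 of 72 members had a symbol, and 8 identifiers of all had an entry.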

Additional observations from a re-analysis of the deposited data

How the results depend on the processing

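No paired analysis was possible because the parental groups compared at 96 hpf had 1 library each. The stages could be paired by parental group, but that contrast chose the members and was not tested. Of 141 recomputed values, 86 stayed within 1.5 times (counts, shares of transcripts and log2 differences) or within 1 SD over the 3 parental groups of 96 hpf, which is no replicate error (3.22 FPKM for levels and 0.116 percentage points for shares of FPKM). The other 55 did not, and the direction of no median difference turned. The number of members was 38, 186 and 270 with limits of 0.01, 0.5 and 1 FPKM at 24 hpf, 131 and 35 with limits of 5 and 20 FPKM at 96 hpf, and 27 without members listed at 0 at 24 hpf. Median levels moved to 20.9 (control) and 19.4 FPKM (0.078 µM) with the limit of 0.01, and to 21.9 FPKM (control) with that of 1. They were 13.5, 12.5 and 11.7 FPKM with the limit of 5, and 56.4, 56.8 and 46.4 FPKM with that of 20, in control, 0.078 µM and 0.156 µM. Rescaling to a sum of 1000000 gave 56.0, 46.5 and 41.3 for the same members. These values are no longer FPKM, so their move against the SD in FPKM is a change of unit. Shares of FPKM in the same order were 0.246%, 0.208% and 0.194% with the limit of 0.01, 2.63%, 2.34% and 2.20% with 0.5, and 3.29%, 2.98% and 2.79% with 1. With the limit of 20 they were 1.04% in control and 0.902% at 0.078 µM, and 1.29% in control with the 10 most abundant transcripts left out of the total. Members 1.5-fold apart numbered 3 (0.078 µM against control), 16 (0.156 µM against control) and 6 (between doses). The share of other transcripts 1.5-fold apart was not computed, so these counts have no background and cannot be set beside those of 2-fold differences. In the last 2 comparisons 0 members were 4-fold apart, and with a pseudocount of 5, 0 were 2-fold apart between the doses. The share of other transcripts was not computed for these settings either. The background of 2-fold differences was 1.91%, 2.21% and 1.99% without a filter, and 2.16%, 2.76% and 2.37% with at least 5 FPKM in 1 library. The order control above 0.078 µM above 0.156 µM was held by 40.0% to 57.1% of the members over the alternatives, all added after seeing the data. Median log2 differences moved by over 1.5 times in 13 cases. For 0.078 µM against control they were -0.08 with the limit of 1 at 24 hpf, -0.11 when chosen in the 0.156 µM libraries alone and -0.06 when the members were then left out. For 0.156 µM against control they were -0.15 and -0.12 with the limits of 0.5 and 1 at 24 hpf, -0.12 with the limit of 5 at 96 hpf, -0.16 without members listed at 0, -0.16 when chosen in the 0.078 µM libraries alone and -0.11 when the members were then left out. Between the doses they were -0.07 with the limits of 0.01 and 1 at 24 hpf, -0.05 with that of 5 at 96 hpf and -0.03 without members listed at 0. Apart from the limits, where other transcripts enter, and the rescaled levels, where the unit changes, the cause was not tested.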
